A study of Homo sapiens with 8 samples.

Results

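The Fanconi anemia pathway and homologous recombination repair DNA breaks and crosslinks by copying the sister chromatid. In textbook outline, the Fanconi core complex is a ubiquitin ligase that marks the FANCD2-FANCI pair (the ID2 complex) at a stalled replication fork, nucleases trim the broken ends, BRCA1, PALB2 and BRCA2 prepare the exposed strand for pairing with the sister, and helicases and nucleases resolve the joined strands. ATM and ATR are the kinases that signal the damage. Germline loss of many of these genes causes Fanconi anemia or a predisposition to breast cancer, and transcripts of many of them are made mainly while DNA is being copied.

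The genes described here are 44 repair genes, chosen by name, of the 12939 genes that the deposited values list (0.34%). They comprise 8 genes of the Fanconi core complex, 6 of the ID2 complex and its ubiquitin switch, 12 of the BRCA proteins and mediators of strand exchange, 6 of the MRE11-RAD50-NBN (MRN) complex and end resection, 6 helicases and junction nucleases, 4 damage kinases, and POLQ and HELLS. All 44 were present in every library and none was lost to a filter applied here, but the authors had removed genes with low values before the deposit. The choice was made with earlier results of these data known, so counts of the 44 genes set beside those of all genes are descriptions.

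The libraries came from cancer stem cells (CSCs) of MDA-MB-231, a human triple-negative breast cancer cell line, which carried GFP under the Oct4a regulatory region. The CSCs were sorted for bright GFP and for the RFP of the shRNA vector, so all 3 groups carried both reporters. The shRNA was scramble (3 libraries), CDH2 shRNA (3 libraries) or Cx43 shRNA (2 libraries). Each shRNA had been stably transfected and selected with puromycin, in medium that also held G418. For CDH2 shRNA the authors used clone B, chosen for its knockdown. Differences between the separately made lines and effects of the shRNA cannot be told apart. CDH2 encodes N-cadherin, an adhesion protein, and Cx43 is a gap junction protein. After an overnight incubation, total RNA was extracted and depleted of ribosomal RNA. A single cell line was used. CDH2 itself and GJA1, the gene of Cx43, were not analysed here, and the success of the knockdowns has no check in these values.

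Values are log2(CPM + 1), in which CPM is a read count scaled to the size of the library, and a difference of 1 is about a doubling. No read counts are given, the depth is unknown, and the replicates set the precision. The authors had removed the effect of sequencing runs. Among libraries of the same replicate number, deviations from group means cancelled to within 1e-04 for any gene. Scramble replicate 1 lay within 0.0678 of the scramble mean in every gene, with a median of 0.0036, against a median of 0.096 for scramble replicate 2. The 3 scramble libraries therefore varied as 1 pair around a fixed middle, and the residual spread of the whole series ran in 2 directions where the model has 3. Nothing in the labels says that libraries of a group came from separate cultures, so p-values measure the spread between these libraries, which may be technical. Of 6 markers of MDA-MB-231 (VIM, CD44, AXL, CAV1, ANXA1 and MSN), 6 were listed, at 3.71 to 9.81. Of 9 hormone receptor and epithelial markers that this line lacks, such as ESR1 and CDH1, 0 were among the genes analysed here. Of 10 markers of marrow stroma and blood cells, PDGFRB and PECAM1 were listed, and their summed CPM was 27.8 to 36.3 in the knockdown libraries and 45.5 to 56.6 in scramble, with the defining blood markers PTPRC, CD3E, CD14 and HBB not among the genes analysed.

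Promoter sequence is shown first for the genes that moved most. Of the 44 genes, 38 had an entry in the RefSeq promoter table (build GRCh38.p14, 250 bases before to 50 after each start), and DNA2, ATAD5, FANCI, RAD54B, WRN and NBN had none. The stretches below lie upstream of the start, read 5′ to 3′ on the gene's strand. POLQ, BRCA2 and BRIP1 are shown because they were past threshold under CDH2 shRNA (defined with the first comparison), and FANCC, which did not pass the test, because it holds a match to the E2F motif, shown in capitals. E2F factors are known for driving genes of DNA replication. The letters searched, on both strands, were TTTCCCGC, TTTCGCGC, TTTGCCGC and TTTGGCGC.
POLQ, chr3:121545989-121546088, minus strand: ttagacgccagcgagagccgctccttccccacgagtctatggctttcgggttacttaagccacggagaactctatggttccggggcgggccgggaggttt
BRCA2, chr13:32315405-32315504, plus strand: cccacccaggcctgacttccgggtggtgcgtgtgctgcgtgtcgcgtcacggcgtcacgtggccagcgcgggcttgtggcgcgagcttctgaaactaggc
BRIP1, chr17:61863560-61863659, minus strand: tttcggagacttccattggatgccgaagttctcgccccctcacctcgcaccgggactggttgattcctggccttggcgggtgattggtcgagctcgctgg
FANCC, chr9:95317716-95317815, minus strand: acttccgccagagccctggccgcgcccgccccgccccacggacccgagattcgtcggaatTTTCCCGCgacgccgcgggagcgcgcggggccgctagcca

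An E2F match stood in a promoter window of 7 of the 38 repair genes (18.4%), namely EXO1, FANCA, FANCC, FANCD2, GEN1, HELLS and XRCC2. It stood in 6.92% of the genes in the values that had a promoter entry and in 3.99% of all genes in the table. The cell cycle motif TTTGAA (CHR) was found in 15.8% of the repair genes, 13.4% of the genes in the values and 18.2% of all genes in the table. The 7 genes with an E2F match had a median log2 fold change of 0.46 under CDH2 shRNA and the 31 without one 0.33, a description without a test. POLQ, BRCA2 and BRIP1 held no E2F match in these windows. FANCC and HELLS, with 2 E2F matches each, had log2 fold changes of 0.08 and 0.52 under CDH2 shRNA.

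Levels between genes are compared per kilobase of the canonical transcript, as the mean CPM of the scramble libraries. By that measure UBE2T stood highest at 40.3 CPM per kilobase, followed by USP1 at 23.7, HELLS at 22.7 and RAD51AP1 at 20.8. The lowest were POLQ at 0.965, FANCF at 1.08, WRN at 1.22 and GEN1 at 1.27. UBE2T and USP1 both act on the ubiquitin mark, and POLQ, WRN and GEN1 have long transcripts, of 8757, 7575 and 9957 bases.

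The first comparison set the libraries labelled CDH2 shRNA against scramble. Of the 44, 39 had a higher mean under CDH2 shRNA than under scramble, and the median log2 fold change was 0.37, against 0.01 over all genes. In limma's test across all genes, with the replicate number as a block, 20 rose with an adjusted p under 0.05 and 0 fell, against 7.29% and 6.98% of all 12939 genes. At an unadjusted p under 0.05, 30 were higher and 0 lower, against 19.5% and 18% of all genes. ATAD5, BRIP1, BRCA2 and POLQ were past threshold, which for CDH2 shRNA means an adjusted p under 0.05 and a log2 fold change of 0.73 or more, as 0.866% of all genes were in the higher direction. In 35 genes every CDH2 shRNA library lay above every scramble library, which held for 27.1% of all genes. RAD50 was the 1 gene with every library below, and the share of all genes in that direction was not counted.

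The number of calls rested on how the spread was estimated. Without the replicate block, 32 of the 44 genes rose and 1 fell (33 in all), while 22.5% of all genes rose and 20.8% fell. With 2 residual degrees of freedom, the number of directions in which the values vary, 6 rose, namely ATAD5, BRIP1, BRCA2, DNA2, GEN1 and POLQ, and 0 fell, against 0.974% and 1.31% of all genes. With CDH2 shRNA replicate 1 or 2, Cx43 shRNA replicate 1 or 2 or scramble replicate 1 left out, 0 repair genes had an adjusted p under 0.05, among 0 to 10 of all genes, and the median log2 fold change stayed between 0.37 and 0.40. Leaving out replicate 3 of CDH2 shRNA or of scramble gave 23 that rose and 1 that fell, against 20.9% and 20.1% of all genes, and a median of 0.32. With scramble replicate 2 left out, 19 had an adjusted p under 0.05 and the median was 0.41, and the share of all genes is not given. A fit of the CDH2 shRNA and scramble libraries alone gave 0 repair genes and 0 of all genes.

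**Figure D1:**
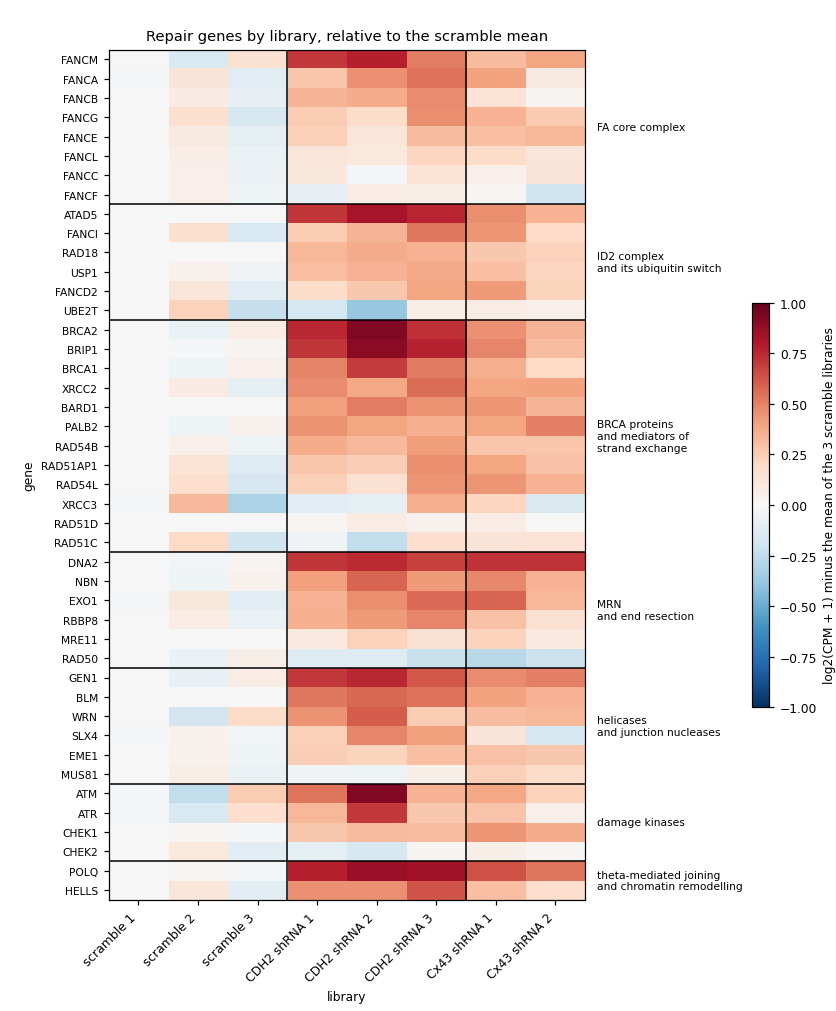
Level of the 44 repair genes (rows, grouped by role) in the 8 libraries (columns), as log2(CPM + 1) minus the mean of the 3 scramble libraries, from blue (lower) to red (higher). Red fills the CDH2 shRNA columns in 39 rows by their mean and RAD50 is blue in all 5 knockdown libraries, while the column of scramble replicate 1 is blank because that library lies at the scramble mean.

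Before a correction for transcript length (given below), the Fanconi core complex moved least among the larger groups. Its median log2 fold change was 0.26 under CDH2 shRNA, and 2 of 8 genes passed the test. It had the shortest transcripts of the role groups (median 3154 bases), and the groups were not ranked after that correction. FANCM is the DNA translocase that anchors the complex to damaged forks. It read 4.70, 4.77 and 4.50 in the CDH2 shRNA libraries, 4.30 and 4.38 under Cx43 shRNA and 3.99, 3.84 and 4.14 in scramble. All knockdown libraries lay above the scramble range, CDH2 shRNA highest, with a log2 fold change of 0.67 (SE 0.12, adjusted p = 0.0302). FANCA, a scaffold subunit, read 6.50, 6.68 and 6.76 under CDH2 shRNA, 6.62 and 6.31 under Cx43 shRNA and 6.21, 6.34 and 6.10 under scramble. Its CDH2 shRNA values were above all scramble values and its second Cx43 shRNA value was not, and the difference of 0.43 did not pass (adjusted p = 0.0806). At the other end, FANCC gave 3.88, 3.76 and 3.91 with CDH2 shRNA, 3.83 and 3.90 with Cx43 shRNA and 3.77, 3.82 and 3.71 with scramble, groups that overlapped for CDH2 shRNA. FANCF, an adaptor subunit, gave 2.10, 2.25 and 2.25 with CDH2 shRNA, 2.19 and 1.98 with Cx43 shRNA and 2.17, 2.24 and 2.14 with scramble, which overlapped in both comparisons. Of the remaining subunits, FANCB rose (log2 fold change 0.40, adjusted p = 0.0439), and FANCG, FANCE and FANCL, the ligase subunit, had differences of 0.30, 0.23 and 0.15 that did not pass.

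In the ID2 group ATAD5, USP1 and RAD18 rose, while the ubiquitin-marked pair itself did not pass the test. ATAD5 unloads the PCNA ring and recruits the USP1 deubiquitinase. ATAD5 values were 5.35, 5.47 and 5.40 for CDH2 shRNA, 5.10 and 4.99 for Cx43 shRNA and 4.63, 4.64 and 4.64 for scramble. The 3 groups did not overlap and stood in the order scramble, Cx43 shRNA, CDH2 shRNA, and ATAD5 was past threshold under CDH2 shRNA (log2 fold change 0.77, SE 0.08, adjusted p = 0.0167). USP1, which removes ubiquitin from FANCD2, rose by 0.34 (adjusted p = 0.0418) and RAD18, the ligase of PCNA, by 0.35 (adjusted p = 0.0356). FANCI measured 6.002, 6.08 and 6.27 in CDH2 shRNA, 6.18 and 5.94 in Cx43 shRNA and 5.74, 5.90 and 5.59 in scramble libraries. FANCD2 measured 5.38, 5.46 and 5.59 in CDH2 shRNA, 5.63 and 5.42 in Cx43 shRNA and 5.19, 5.32 and 5.08 in scramble libraries. In both partners every knockdown library exceeded every scramble library, yet the differences of 0.37 and 0.28 under CDH2 shRNA had adjusted p values of 0.106 and 0.13. UBE2T, the conjugating enzyme that feeds the core complex, had 5.00, 4.79 and 5.24 under CDH2 shRNA, 5.25 and 5.22 under Cx43 shRNA and 5.18, 5.40 and 4.94 under scramble. It had the lowest log2 fold change of the 44 genes, -0.16 (adjusted p = 0.507), with overlapping groups, and the shortest transcript, of 878 bases.

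The BRCA proteins and mediators of strand exchange held 7 of the 20 genes that rose, and the group median was 0.38. BRCA2, a mediator of strand exchange, read 5.47, 5.65 and 5.45 with CDH2 shRNA, 5.18 and 5.06 with Cx43 shRNA and 4.72, 4.65 and 4.80 with scramble. BRIP1, the helicase partner of BRCA1, read 5.34, 5.53 and 5.40 with CDH2 shRNA, 5.11 and 4.94 with Cx43 shRNA and 4.62, 4.61 and 4.65 with scramble. Both genes again gave 3 separate ranges with CDH2 shRNA on top, with log2 fold changes of 0.80 for each under CDH2 shRNA (SE 0.098 and 0.095, adjusted p = 0.0199 and 0.0198). BRCA1 rose by 0.57 (adjusted p = 0.0272), BARD1, its ring partner, by 0.46 (adjusted p = 0.0265) and PALB2, which joins BRCA1 to BRCA2, by 0.40 (adjusted p = 0.0349). XRCC2, also a mediator, rose by 0.47 and RAD54B, a motor protein of strand exchange, by 0.37 (adjusted p = 0.0334 and 0.0368). RAD51AP1 and RAD54L, also helpers of strand exchange, had differences of 0.33 and 0.28, and XRCC3 of 0.053, none of which passed.

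RAD51D and RAD51C, also mediators, stood near 0. RAD51D read 4.11, 4.17 and 4.14 under CDH2 shRNA, 4.17 and 4.10 under Cx43 shRNA and 4.09, 4.10 and 4.10 under scramble. The ranges were narrow and did not overlap for CDH2 shRNA, although the difference was 0.041 (adjusted p = 0.71). RAD51C read 4.30, 4.09 and 4.50 under CDH2 shRNA, 4.46 and 4.48 under Cx43 shRNA and 4.33, 4.53 and 4.13 under scramble, and its groups overlapped with a difference of -0.04 (adjusted p = 0.878).

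Of the 6 genes of MRN and end resection, 5 had a higher mean in each knockdown. DNA2 rose in both, and RAD50 alone had a lower mean in both, without passing the test. DNA2, the nuclease of long-range resection, read 4.83, 4.85 and 4.80 with CDH2 shRNA, 4.83 and 4.83 with Cx43 shRNA and 4.11, 4.08 and 4.14 with scramble. Its 5 knockdown values lay within a narrow band far above scramble, and the log2 fold change under CDH2 shRNA was 0.72 (SE 0.073, adjusted p = 0.0166), just under the threshold of 0.73. NBN, the MRN subunit that binds ATM, read 6.46, 6.63 and 6.47 with CDH2 shRNA, 6.53 and 6.39 with Cx43 shRNA and 6.04, 6.003 and 6.09 with scramble, and it rose by 0.48 (adjusted p = 0.0334). RBBP8, also called CtIP, which starts resection, rose by 0.42 (adjusted p = 0.0386), and the exonuclease EXO1 had a difference of 0.46 (adjusted p = 0.0541). The catalytic and tethering partners of NBN differed from it. MRE11 gave 5.20, 5.32 and 5.25 for CDH2 shRNA, 5.32 and 5.19 for Cx43 shRNA and 5.09, 5.09 and 5.10 for scramble, higher in every knockdown library but by 0.16 under CDH2 shRNA (adjusted p = 0.207). RAD50 gave 5.70, 5.70 and 5.61 for CDH2 shRNA, 5.55 and 5.61 for Cx43 shRNA and 5.83, 5.77 and 5.89 for scramble, lower in every knockdown library, by 0.16 under CDH2 shRNA (adjusted p = 0.205).

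Among the helicases and junction nucleases, GEN1, a resolvase of Holliday junctions, read 4.48, 4.52 and 4.39 under CDH2 shRNA, 4.24 and 4.28 under Cx43 shRNA and 3.77, 3.69 and 3.84 under scramble. BLM, the Bloom syndrome helicase, read 4.66, 4.71 and 4.67 under CDH2 shRNA, 4.53 and 4.48 under Cx43 shRNA and 4.13, 4.13 and 4.14 under scramble. Both fell into 3 separate ranges, CDH2 shRNA highest, and rose by 0.69 (adjusted p = 0.0199) and 0.55 (adjusted p = 0.0207). EME1 and MUS81 form a single nuclease. EME1 had 3.21, 3.19 and 3.27 with CDH2 shRNA, 3.26 and 3.23 with Cx43 shRNA and 2.96, 3.01 and 2.92 with scramble, a difference of 0.26 without overlap that did not pass (adjusted p = 0.0699). MUS81 had 5.34, 5.32 and 5.43 with CDH2 shRNA, 5.61 and 5.55 with Cx43 shRNA and 5.37, 5.44 and 5.30 with scramble, so its CDH2 shRNA and scramble libraries overlapped while both Cx43 shRNA libraries stood higher. WRN, the Werner syndrome helicase, and SLX4, the nuclease scaffold, had differences of 0.44 and 0.38 under CDH2 shRNA with adjusted p values of 0.0823 and 0.0784.

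Of the damage kinases, CHEK1, the effector kinase of ATR, rose by 0.30 (adjusted p = 0.0496), close to the limit. It passed in 4 of 18 alternative fits, and with 2 residual degrees of freedom its adjusted p was 0.213. ATM had a difference of 0.61 and ATR of 0.43, larger than that of CHEK1, but with SEs of 0.20 and 0.16 against 0.073, and neither passed (adjusted p = 0.0893 and 0.115). In ATM the same-numbered CDH2 shRNA and scramble libraries differed by 0.55, 1.17 and 0.095. CHEK2 had a difference of -0.08 (adjusted p = 0.584). POLQ, the polymerase of theta-mediated end joining, read 4.02, 4.10 and 4.08 with CDH2 shRNA, 3.88 and 3.78 with Cx43 shRNA and 3.24, 3.26 and 3.23 with scramble. It stood in 3 separate ranges and had the largest log2 fold change of the 44 genes, 0.83 (SE 0.077, adjusted p = 0.016), a fold of 1.77. HELLS, a chromatin remodeller, rose by 0.52 (adjusted p = 0.0364).

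**Figure D2:**
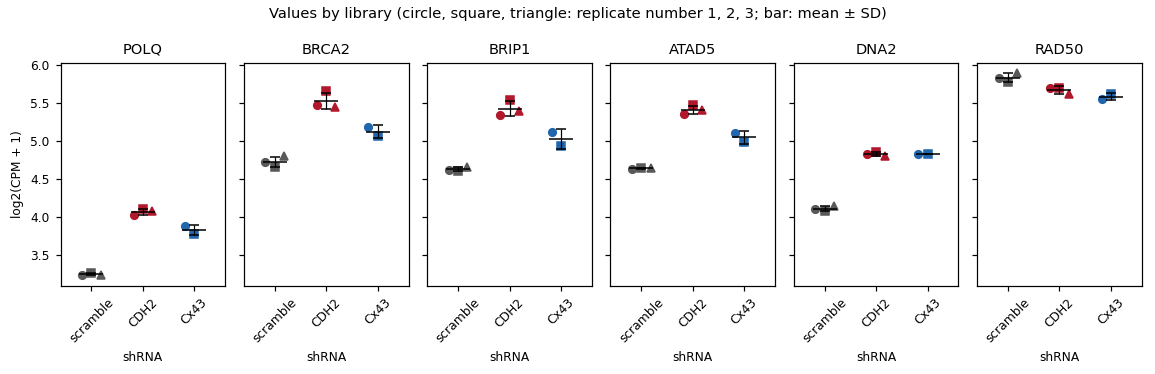
Values by library of POLQ, BRCA2, BRIP1, ATAD5, DNA2 and RAD50, in log2(CPM + 1), with markers for the replicate number and bars for the mean ± SD (n = 3 for scramble and CDH2, 2 for Cx43). POLQ, BRCA2, BRIP1 and ATAD5 stand highest under CDH2 shRNA, DNA2 stands at 4.80 to 4.85 in all 5 knockdown libraries, and RAD50 is lower in them than in scramble.

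The second comparison set the libraries labelled Cx43 shRNA against the same 3 scramble libraries. The mean was higher in 41 of 44 genes, with a median log2 fold change of 0.29 against 0.04 over all genes. DNA2 was the 1 gene with an adjusted p under 0.05 in limma's test (log2 fold change 0.72, SE 0.085, adjusted p = 0.0364) and, at a fold of 1.65 against the threshold of 1.5 for Cx43 shRNA, the 1 gene past threshold. Of all genes, 0.417% rose, 0.788% fell and 0.402% were past threshold in the higher direction. At an unadjusted p under 0.05, 21 repair genes were higher and 1 was lower, against 12.2% and 9.41% of all genes. Both Cx43 shRNA libraries lay above all scramble libraries in 33 genes, against 31.4% of all genes. They lay below them in RAD50, a direction in which the share of all genes was not counted. Without the replicate block 22 rose and 1 fell, against 14% and 10.3% of all genes. With 2 residual degrees of freedom 0 passed, among 82 of all genes, and DNA2 had an adjusted p of 0.105. When CDH2 shRNA replicate 1 or 2, either Cx43 shRNA replicate or scramble replicate 1 was left out, 0 passed, among 0 to 5 of all genes. Without replicate 3 of CDH2 shRNA or of scramble 14 rose and 0 fell, against 9.13% and 7.36% of all genes, and when the Cx43 shRNA and scramble libraries were fitted alone 16 rose and 0 fell, against 12.1% and 9.59%.

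After DNA2, the largest log2 fold changes under Cx43 shRNA were those of POLQ at 0.59 (adjusted p = 0.0517), GEN1 at 0.49 (adjusted p = 0.0847), EXO1 at 0.46 and PALB2 at 0.45 (adjusted p = 0.0854). The group medians ran from 0.20 for the core complex to 0.37 for the BRCA proteins and mediators of strand exchange, and the pair of POLQ and HELLS had a median of 0.41. RAD50 was lowest at -0.25, followed by FANCF at -0.095 and SLX4 at -0.02. The 20 genes that rose under CDH2 shRNA had log2 fold changes between 0.083 (FANCB) and 0.72 (DNA2) here, a side-by-side description since both comparisons use the same scramble libraries.

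**Figure D3:**
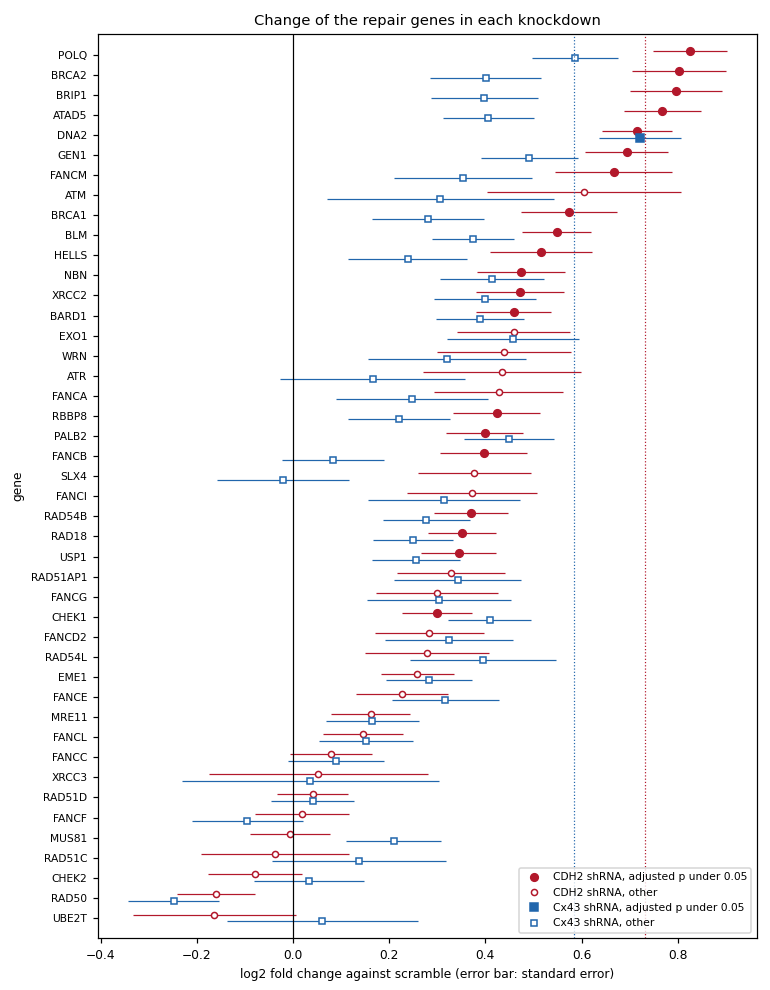
Log2 fold change against scramble of the 44 repair genes, sorted by CDH2 shRNA (red circles) with Cx43 shRNA as blue squares, bars for the standard error and filled marks for an adjusted p under 0.05. Dotted lines mark the fold thresholds of each knockdown in its colour. 20 red marks and 1 blue mark, DNA2, are filled.

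CDH2 shRNA and Cx43 shRNA were then compared directly. No repair gene had an adjusted p under 0.05 (lowest 0.155), and 0% of all genes did. At an unadjusted p under 0.05, 7 repair genes were higher under CDH2 shRNA, namely ATAD5, BRIP1, BRCA2, FANCB, SLX4, POLQ and BRCA1, and 0 were lower, against 8.65% and 11.4% of all genes. The differences ran from -0.23 (UBE2T) to 0.40 (BRCA2), with a median of 0.07, and 28 of 44 were above 0. BRCA2 differed by 0.40 with an SE of 0.115, BRIP1 by 0.40 with an SE of 0.112 and DNA2 by -0.0052 with an SE of 0.085. A difference between the knockdowns in these genes was thus not shown by this test.

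The changes were then set against transcript length, taken from the canonical transcript of GENCODE v44 on hg38. The repair genes are long, with a median of 4607 bases against 3238 over the 12177 genes that could be matched, and their transcripts are poor in GC (median 41.2% against 48.2%). Across the 44 genes the log2 fold change under CDH2 shRNA had a Pearson's r of 0.58 and a Spearman's rho of 0.58 with the log10 of length. Across all genes r was 0.45, and the median log2 fold change went from -0.25 in the shortest of 10 equal length bins to 0.25 in the longest. Under Cx43 shRNA r was 0.20 across the repair genes and 0.09 across all genes. These correlations run over genes that share the same libraries and are descriptions. Measured over all merged exons of a gene, r across the repair genes was 0.29 for CDH2 shRNA and -0.03 for Cx43 shRNA, and over the coding part alone 0.68 and 0.31.

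Set against the median of all genes in the same length bin, 39 of the 44 genes were higher under CDH2 shRNA, by a median of 0.29, and 40 under Cx43 shRNA, by a median of 0.23. The shorter 22 genes had a median log2 fold change of 0.29 under CDH2 shRNA, with 8 passing the test, and the longer 22 of 0.47, with 12 passing. BRCA2, at 11954 bases, lay 0.56 above the median of its bin, and DNA2, at 4267 bases, lay 0.60 above. HELLS, at 3128 bases, lay 0.52 above. RAD50, at 8272 bases, lay 0.41 below, and RAD51D, at 9966 bases, 0.21 below.

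**Figure D4:**
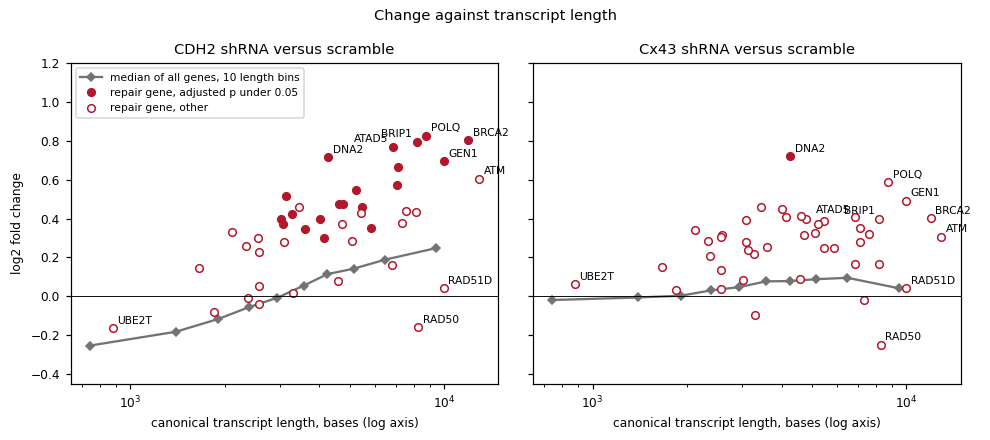
Log2 fold change against canonical transcript length (log axis) for CDH2 shRNA (left) and Cx43 shRNA (right), with the repair genes as circles (filled for an adjusted p under 0.05) and the median of all genes in 10 length bins as grey diamonds at the median length of the bin. Most circles lie above the grey line in both panels, and RAD50 and RAD51D lie below it on the left.

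With a smooth trend on length taken out of each library, 20 repair genes rose under CDH2 shRNA, of which 17 were among the former 20, against a background of 8.06% of all genes. RAD18, XRCC2 and CHEK1 no longer passed (adjusted p = 0.129, 0.0863 and 0.0849), and FANCL, RAD51AP1 and EME1 now did (adjusted p = 0.0323, 0.0314 and 0.0251). RAD50 now fell, by 0.37 (adjusted p = 0.0296), and the share of all genes that fell after this correction is not given. No gene was past threshold, since the largest corrected log2 fold change was 0.63, for DNA2. The median was 0.31. The correction turned the sign of 8 genes with small differences that had not passed, among them UBE2T (from -0.16 to 0.07), MRE11 (from 0.16 to -0.02), RAD51D (from 0.041 to -0.19) and RAD51C (from -0.04 to 0.013), and 39 of 44 were still above 0. With GC content taken out as well, 36 were above 0 and 11 rose, 8 of them among the former 20, and RAD50 fell, against 6.83% and 6.71% of all genes. Under Cx43 shRNA 2 genes rose after the length correction, DNA2 and GEN1, where 1 had before it. Of all genes 1.49% rose after it and 0.417% before.

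The correlation with length differed between replicate numbers. Between same-numbered CDH2 shRNA and scramble libraries, r across the repair genes was 0.57 for number 1, 0.76 for number 2 and -0.05 for number 3, and 0.46, 0.56 and 0.04 across all genes. The median difference of the 44 genes was 0.32, 0.31 and 0.44, and 37, 36 and 43 were higher. The shorter 22 genes had medians of 0.25, 0.07 and 0.41 and the longer 22 of 0.44, 0.60 and 0.46. In number 3 POLQ differed by 0.85, ATAD5 by 0.76, BRIP1 by 0.74, BRCA2 by 0.65 and DNA2 by 0.66, while ATM differed by 0.095, WRN by 0.07 and RAD50 by -0.28, genes chosen here after their values were seen. For Cx43 shRNA the 2 pairs gave r of 0.24 and 0.45 and median differences of 0.31 and 0.19, with 0.30 and 0.10 for the shorter 22 genes and 0.40 and 0.32 for the longer 22. Libraries of the same group also differed with length. Scramble replicate 2 minus replicate 3 had an r of -0.73 across the repair genes and CDH2 shRNA replicate 2 minus replicate 3 one of 0.78, and because deviations within a replicate number sum to 0, these are not independent of each other. The part of length in each gene's change was not tested beyond the corrections above.

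**Figure D5:**
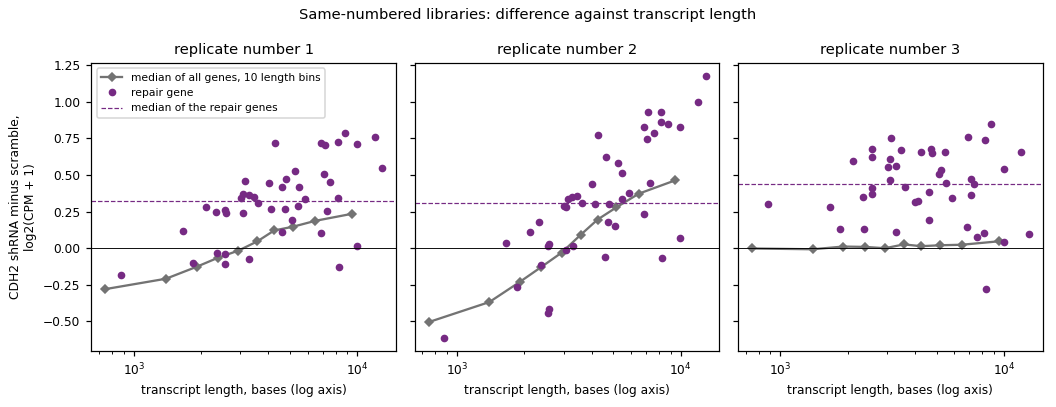
CDH2 shRNA minus scramble in log2(CPM + 1) for libraries of the same replicate number, against transcript length (log axis), with the repair genes as circles, their median as a dashed line and the median of all genes in 10 length bins as grey diamonds. The grey line climbs for numbers 1 and 2 and is flat for number 3, where the dashed line stands at 0.44.

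Other repair genes are given beside these, and the difference from the 44 genes was not tested. A list of 65 other Fanconi and recombination genes, 64 of them analysed, had a median log2 fold change of 0.10 under CDH2 shRNA, with 12 genes that rose and 5 that fell, where all genes gave 7.29% and 6.98%, and 1 past threshold, REV3L, the catalytic subunit of a translesion polymerase (0.74, adjusted p = 0.0404). Under Cx43 shRNA its median was 0.04 and 0 passed. Of 18 end joining genes, 4 rose and 0 fell under CDH2 shRNA, with a median of 0.07. Of 45 genes of mismatch, base excision and nucleotide excision repair, 5 rose and 3 fell, with a median of 0.06. Under Cx43 shRNA 0 genes of either list passed, and the medians were 0.12 and 0.10. The median transcript length of these 3 lists was 3611, 3712 and 2699 bases, shorter than the 4607 of the 44 genes.

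S phase is the part of the cell cycle in which DNA is copied. The S phase list of Seurat holds 43 genes, of which 5 are repair genes described here. The other 38 had a median log2 fold change of 0.21 under CDH2 shRNA, with 11 that rose and 0 that fell against 7.29% and 6.98% of all genes, and of 0.25 under Cx43 shRNA, with 1 that rose against 0.417%. The median of these 38 genes was 5.92, 5.93 and 6.05 in the CDH2 shRNA libraries, 6.0015 and 5.86 in the Cx43 shRNA libraries and 5.61, 5.72 and 5.54 in scramble. The median of the 44 repair genes was 5.20, 5.21 and 5.26, then 5.15 and 5.02, and 4.67, 4.65 and 4.72 in the same order. Both medians were higher in all 5 knockdown libraries than in the 3 scramble libraries. In such bulk RNA, more cells in S phase and more transcript per cell cannot be told apart, and the part of S phase in the changes was not tested.

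Finally, the genes that share a start region with a repair gene were examined. A start on the opposite strand lay within 500 bases upstream for 13 of the 44 genes (29.5%), against 19.6% of all genes. For 9 of these pairs the neighbour was among the genes analysed, and 0 neighbours had an adjusted p under 0.05 in either knockdown (lowest 0.0656). Under CDH2 shRNA the repair gene had the higher log2 fold change in 9 of 9 pairs, and under Cx43 shRNA in 8 of 9. Such counts were likely with most partner genes, since the 44 genes had medians of 0.37 and 0.29, against 0.01 and 0.04 over all genes. The counts are descriptions, and the transcript lengths of the neighbours were not taken into account. BRCA1 had 0.57 and NBR1, 236 bases from the outermost BRCA1 start, 0.0041. Another BRCA1 start, in the window chr17:43125315-43125614, lay farther into the gene, away from NBR1. PALB2 had 0.40 and DCTN5 -0.08, and EME1 had 0.26 and MRPL27 -0.24. Under CDH2 shRNA the closest pair of changes was RAD51AP1 at 0.33 and C12orf4 at 0.26. Whether reads were counted by strand is not given in the sources used here, so reads of overlapping genes on opposite strands cannot be told apart.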

How the data were processed

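RNA-Seq libraries of sorted CSCs, in groups given by the labels, were used as deposited. The authors aligned the reads to hg38 with STAR (2.6.1 in the submitters' processing notes) in Partek Flow, quantified genes by expectation maximization, removed a low-quality sample, and deposited log2(CPM + 1) values from which the effect of the sequencing runs and genes with low values had been removed. These steps can alter small differences between runs, and the annotation is not given in the sources used here. The tables list 12939 genes, and 1 unnamed line in each was dropped. The depth is unknown.

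The members, role groups and other lists were chosen with earlier results of these data known. Values of all genes were fitted with limma 3.58.1 in R 4.3.3 (lmFit, eBayes) in 1 model of 8 libraries with group and, as a block, replicate number, and two-sided p-values were adjusted by Benjamini-Hochberg. The pairing comes from the replicate numbers of the labels and the run correction of the methods. It could not be checked by correlation, since deviations within a number sum to 0. Passing the test means an adjusted p under 0.05, and past threshold adds a fold of 1.66 (CDH2 shRNA) or 1.5 (Cx43 shRNA and the direct comparison). No filter and no pseudocount beyond the authors' 1 was added. The fit was tested on simulated data.

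Values in full were given for genes past threshold in either knockdown and, in role groups of 6 or more, for the 2 largest and 2 smallest changes under CDH2 shRNA. Lengths came from GENCODE v44, matched by symbol for 94.1% of genes. The length correction removed a spline of 5 degrees of freedom from each library. S phase genes came from Seurat 5.3.0. Alternatives were no block, other scalings, a filter to the top 75% of genes, a pseudocount of 0.1, a mean-variance trend, only the groups compared, 2 residual degrees of freedom, length and GC corrections, other length measures, other fold thresholds and leaving out each library.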

Additional observations from a re-analysis of the deposited data

How the results depend on the processing

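The number of calls depended on the settings. The median change of the 44 genes stayed above 0 in every alternative run, but single genes turned sign, 9 for CDH2 shRNA and 8 for Cx43 shRNA, at differences of at most 0.16 and 0.17, and 0 of these turned values had an adjusted p under 0.05. For CDH2 shRNA the median was 0.29 with the length and GC correction and 0.32 to 0.41 with a library left out, and for Cx43 shRNA it went as low as 0.21, without Cx43 shRNA replicate 1, and as high as 0.34, without Cx43 shRNA replicate 2.

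For CDH2 shRNA, the 20 genes with an adjusted p under 0.05 became 33 with no replicate block, 0 with only the groups compared, 6 with 2 residual degrees of freedom and 12 (11 higher, 1 lower) with the length and GC correction, and 0 to 24 with a library left out. The 4 genes past threshold became 0 with only the groups compared and with the length or length and GC correction, 7 at a fold of 1.5, and 0 to 8 with a library left out. For Cx43 shRNA, the 1 gene with an adjusted p under 0.05 became 23 with no replicate block, 16 with only the groups compared, 2 with quantile normalization, a pseudocount of 0.1, a mean-variance trend or either length correction, 0 with the top 75% of genes or 2 residual degrees of freedom, and 0 to 14 with a library left out. The 1 gene past threshold became 2 with no replicate block, quantile normalization, a pseudocount of 0.1 or a mean-variance trend, 0 with the top 75% of genes, 2 residual degrees of freedom or the fold threshold of CDH2 shRNA, and 0 to 2 with a library left out. No share of all genes past threshold is given for these alternatives. For an adjusted p under 0.05, none is given for quantile normalization, a pseudocount of 0.1 or a mean-variance trend. The same holds without scramble replicate 2 and, for Cx43 shRNA, with the length and GC correction. In those settings, a move of the repair genes cannot be told from one of all genes. With the top 75% of genes, 4 of 9704 genes passed for Cx43 shRNA. The correlation with length under Cx43 shRNA was -0.0288 with merged exon length. Leaving out a library leaves fewer residual degrees of freedom, but such fits gave both fewer and more calls, and the cause of these moves was not tested. Leaving out replicate 3 of CDH2 shRNA or of scramble gives the same fit, since the block then holds 1 library. With 2 or 3 libraries in a group and no counts, a change of the size of that of CHEK2 or RAD51C was within the spread, and depth could not be weighed.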
